A study of Drosophila melanogaster with 29 samples.

Results

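The cytochrome P450 genes of Drosophila melanogaster were followed across 29 Affymetrix arrays of S2 cells, a cultured line of embryonic origin with features of blood cells. Genes were taken by name: a current symbol that starts with Cyp and a digit, measured by the brightest probe set that names the gene alone. That rule found 83 of 11983 genes. Of these, 81 are cytochrome P450s, and 2, Cyp1 and Cyp40, are cyclophilins that share the letters and are described apart at the end. The Release 6 plus ISO1 MT annotation of RefSeq holds 85 P450 symbols of this form, and the other 4 (Cyp12d1-p, Cyp6a15Psi, Cyp6t2Psi and Cyp9f3) were not analysed here. P450 genes known by other symbols, such as the Halloween genes of ecdysone synthesis, fell outside the rule.

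Mock was 14 arrays of S2 cells that received no treatment. The other groups were 3 arrays each of S2 cells given double-stranded RNA (dsRNA) for 4 days against dKDM2, a histone demethylase, or against dRING, PC, PH or PSC, the core subunits of Polycomb repressive complex 1. Exposure to dsRNA was shared by all 5 depletions and absent from Mock, so it and the loss of the target cannot be told apart in a contrast with Mock. The titles call the arrays biological replicates, but no label names separate cultures. All p-values therefore rest on array-to-array spread alone, some of which may be technical.

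Cytochrome P450s are haem-bearing monooxygenases that insert an oxygen atom into their substrates. Most insect P450s sit in the endoplasmic reticulum and take electrons from Cpr, the P450 reductase, while the mitochondrial ones take them through ferredoxins. Enzymes of the CYP3 and CYP4 clans act mainly on plant toxins, insecticides and fatty acids, and those of the CYP2 and mitochondrial clans include makers and breakers of the moulting hormone ecdysone. In the fly, many P450s are made in the midgut, Malpighian tubule and fat body.

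The target check was mixed. Sce, which encodes dRING, stood at 3.63 ± 0.88 on the log2 scale on the dRING arrays against 8.04 ± 0.47 in Mock (SD, n = 3 and 14). Low Sce was not limited to its own depletion. Its mean was 5.22 ± 1.49 with dKDM2 depleted (highest array 6.92) and 5.38 ± 0.43 with PH depleted (highest 5.87). The lowest Mock array was at 7.48. Sce stayed inside the Mock range after PC depletion (7.98 ± 0.01) and under the PSC label (8.31 ± 0.14). Pc stood at 4.39 ± 0.64 on the PC arrays against 6.60 ± 0.62 in Mock. The Psc transcript went against its label: it stood at 9.13 ± 0.42 on the arrays labelled PSC and at 6.77 ± 0.62 in Mock, so these are called the arrays labelled PSC throughout. It was higher than in Mock on the arrays of all 5 depletions, up to a mean of 11.23 on the PH arrays. Depletion of Kdm2, ph-p and ph-d transcripts was not analysed here. The mean of the poly-A spikes, RNAs added before labelling, was 7.15 to 9.18 after dKDM2 depletion and 9.09 to 9.61 after PH depletion, against 2.96 to 7.12 in Mock and 3.88 to 5.18 on the other depletion arrays. Arrays 1 and 2 of Mock, dRING, PC and PSC were very alike. Over genes expressed in Mock, the difference between these 2 arrays had an SD of 0.15 to 0.24, against 0.57 to 0.95 between either of them and array 3 of the group.

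A gene was called expressed where its probe set was above 4 on the log2 scale on at least 12 of the 14 Mock arrays, and silent where it lay within 0.1 of the lowest deposited value, 2.27, on at least 12. By these limits 18 of the 81 P450 genes (22.2%) were expressed, 10 (12.3%) were intermediate and 53 (65.4%) were silent. Over all 11983 genes, 44.3% were expressed and 42.2% were silent. Of the silent P450 genes, 52 were above 4 on no array of any group, and 4 (Cyp28a5, Cyp28c1, Cyp303a1 and Cyp313a2) stood at the lowest value on all 29 arrays and were not tested. The intensity of a probe set depends on its own probes, so levels of different genes were not ranked against each other.

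Expression was uneven among clans. The CYP3 clan, with 37 genes measured, had 13 expressed: Cyp6a8, Cyp6a9, Cyp6a14, Cyp6a17, Cyp6a20, Cyp6a22, Cyp6a23, Cyp6d4, Cyp6u1, Cyp9c1, Cyp9f2, Cyp28d1 and Cyp310a1. The CYP4 clan, with 32 genes, had 2, Cyp4d20 and Cyp4e2. The mitochondrial clan, with 8 genes, had 3, Cyp12a4, Cyp12a5 and Cyp12d1-d. All 4 genes of the CYP2 clan were silent, among them Cyp18a1, which inactivates ecdysone. Silent genes also included Cyp6g1 and Cyp6a2, both known for insecticide resistance, and Cyp4g1, which completes the synthesis of cuticular hydrocarbons in oenocytes.

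The expressed P450s varied more among the untreated arrays than expressed genes in general. Their SD over the 14 Mock arrays had a median of 0.84 on the log2 scale, with a range from 0.37 for Cyp6u1 to 1.59 for Cyp28d1, and the median over all 5305 expressed genes was 0.57. Cyp28d1 was at 3.23 on its lowest Mock array, 5.32 at the median and 9.14 on its highest, and Cyp6a14 ran from 5.53 through 7.55 to 9.79. In bulk RNA, fewer cells that make a transcript and less of it per cell cannot be told apart. No test was made of this difference in spread.

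**Figure D1:**
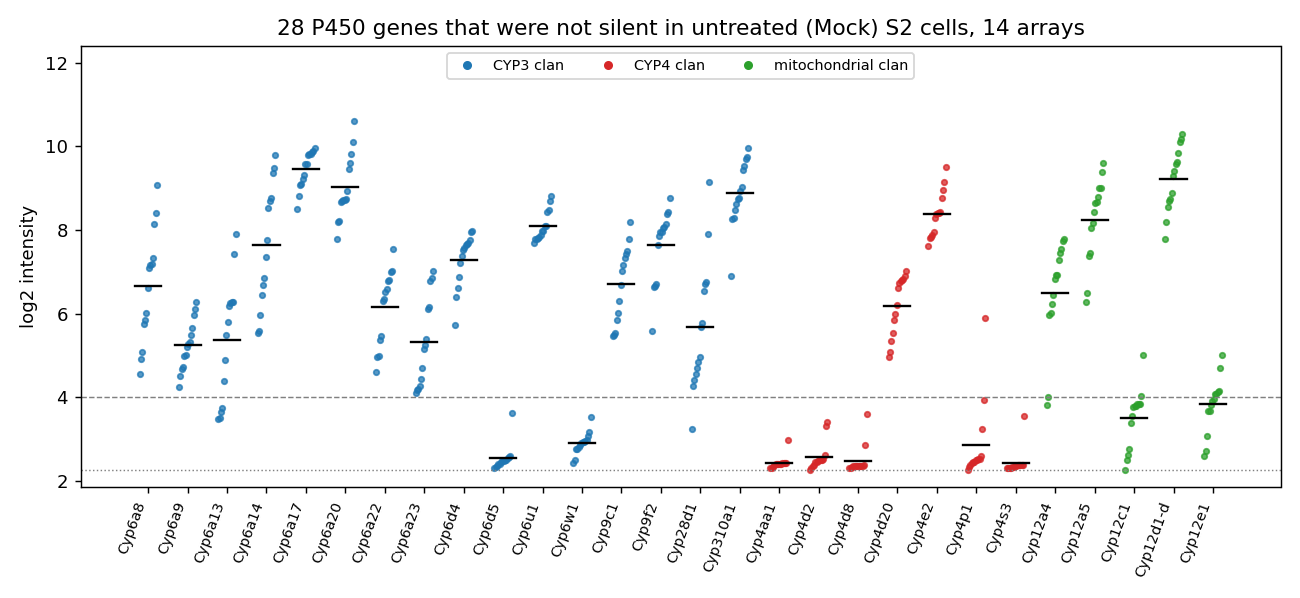
Each point is 1 of the 14 Mock arrays (log2 intensity, vertical axis) for the 28 P450 genes that were not silent, grouped by clan, with a black bar at each mean. The dashed line marks 4 and the dotted line the lowest value, 2.27. The 18 expressed genes lie above the dashed line on at least 12 arrays, and Cyp28d1 and Cyp6a14 are spread over several units.

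Many of these genes stand side by side on the chromosomes. In the gene order of the RefSeq annotation, 39 of the 81 P450s lay in 14 runs of P450 genes with no other gene between them, and 11 of the 18 expressed ones were in such runs. The longest run, on arm 2R, holds Cyp6a22, Cyp6a17, Cyp6a23, Cyp6a19, Cyp6a9, Cyp6a20, Cyp6a21, Cyp6a8 and Cyp317a1 in this order. Of these 9 neighbours, 6 were expressed, while Cyp6a19, Cyp6a21 and Cyp317a1 were silent, so that silent genes lay between expressed ones. Cyp12a5 and Cyp12a4 on 3R were both expressed. Arm 2R carried 33 of the 81 genes and 11 of the 18 expressed ones. None of the 14 P450 genes of the X chromosome was expressed, where 47.6% of all 1873 X genes measured were.

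**Figure D2:**
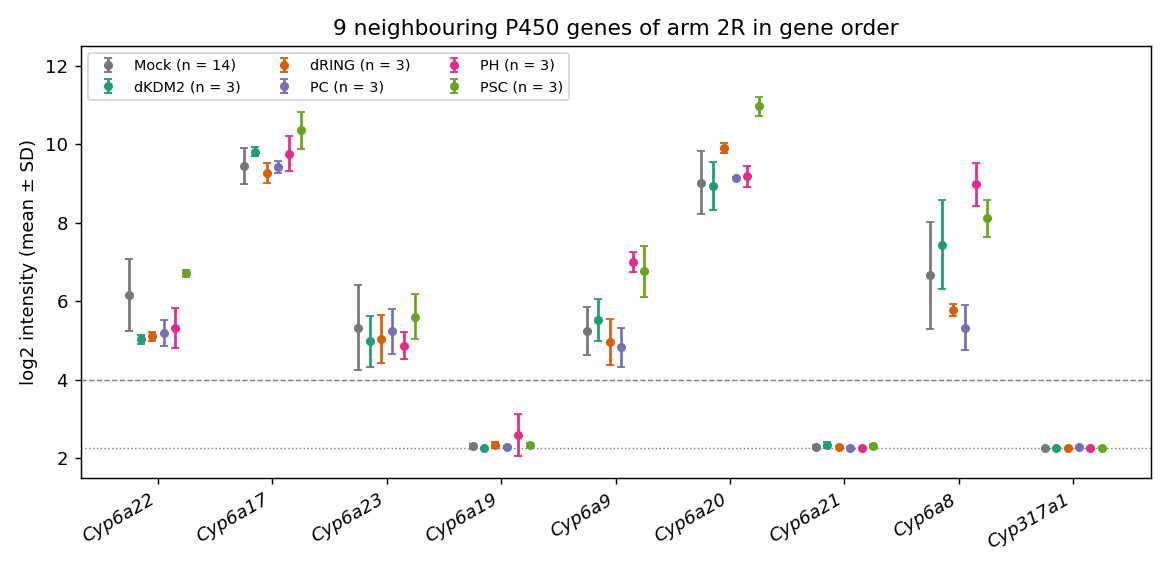
Mean and SD of the log2 intensity (vertical axis) of the 9 neighbouring P450 genes of arm 2R, in gene order, for Mock (n = 14) and each depletion (n = 3). Cyp6a21 and Cyp317a1 stay close to the lowest value in all groups and Cyp6a19 in all but PH (2.60 ± 0.54), Cyp6a20 is highest on the arrays labelled PSC, and Cyp6a9 and Cyp6a8 are high on the PH arrays and on those labelled PSC.

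Depletions were compared with Mock by limma across all 11678 genes tested, 77 of them P450s, and a gene was called at a Benjamini-Hochberg adjusted p under 0.05. Of the 77 P450s, 27 were called in at least 1 contrast. The share of all genes called in at least 1 was not counted, so that total has no background beside it. After dKDM2 depletion 5 rose and 3 fell, where 18.4% of all genes rose and 14.7% fell. After PH depletion 10 rose and 5 fell, against a background of 19.6% and 15.4%. On the arrays labelled PSC 9 rose and 2 fell, against 9.99% and 6.51%. After PC depletion 1 rose and 1 fell, against 3.32% and 1.22%. After dRING depletion limma called none, where 2.04% of all genes rose and 0.736% fell. At an unadjusted p under 0.05 there were 9 P450s, and the share of all genes under that limit was not counted.

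Among the 18 expressed P450s, 3 rose and 3 fell after dKDM2 depletion, where 27.6% of all expressed genes rose and 28.7% fell. After PH depletion 5 rose and 4 fell, beside 27.8% and 28.5%. On the arrays labelled PSC 4 rose and 2 fell, beside 15.2% and 13.9%. After PC depletion none rose and 1 fell, beside 6.01% and 2.64%, and after dRING depletion none was called, beside 3.79% and 1.60%. The median change of the 18 genes was small in each contrast: -0.22 after dKDM2 and 0.16 after PH depletion, and 0.24 on the arrays labelled PSC, with -0.05 after dRING and 0.05 after PC depletion. Over all expressed genes the medians lay between -0.06 and 0.02.

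The choice of Mock arrays moved the counts. Same-numbered arrays of Mock, dRING, PC and PSC deviated together from their group means, and a fit blocked on that number used Mock arrays 1 to 3. It called 3 P450s for dRING, 1 for PC and 17 for the arrays labelled PSC, and the same arrays without the block gave 1, 1 and 16. The poly-A spike level was also used as a covariate, an alternative chosen after seeing the data. With it no P450 rose and 6 fell after dKDM2 depletion, and 1 rose and 4 fell after PH depletion. The shares of all genes called in these alternative fits are not given here, so the counts have no background beside them.

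**Figure D3:**
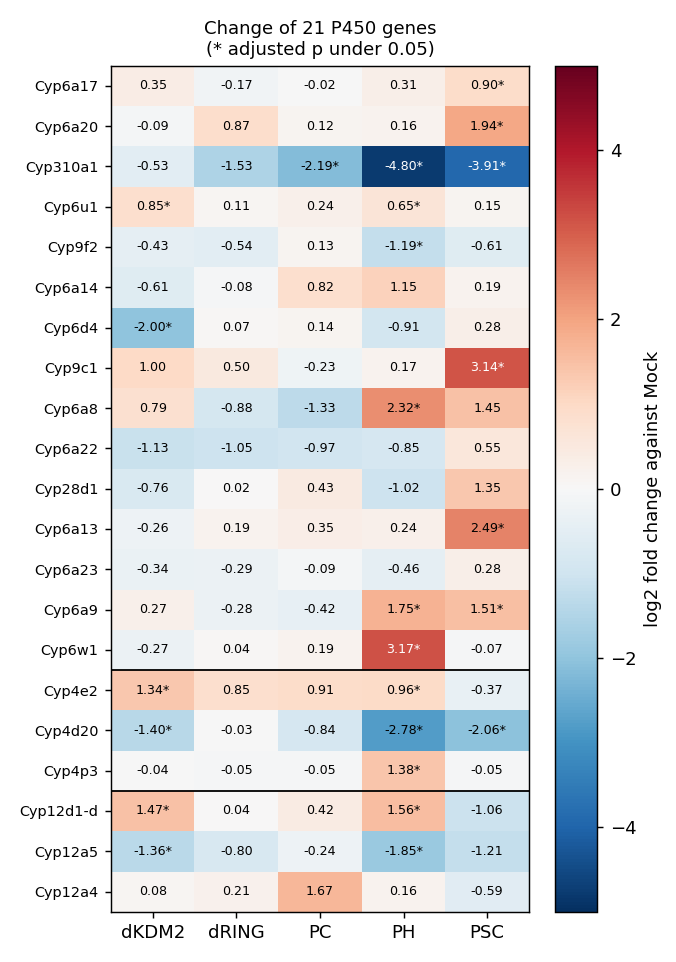
Log2 fold change against Mock (colour and number) of the 18 expressed P450 genes and of Cyp6a13, Cyp6w1 and Cyp4p3 for each depletion. Lines part the CYP3, CYP4 and mitochondrial clans, and an asterisk marks an adjusted p under 0.05. Cyp310a1 shows the deepest falls, -4.80 after PH depletion and -3.91 on the arrays labelled PSC, and Cyp6w1 (3.17) and Cyp9c1 (3.14) the largest rises, each in 1 column.

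Within the CYP3 clan, Cyp310a1 had the largest change of any P450. In Mock it stood at 6.90 on the lowest array, 8.85 at the median and 9.95 on the highest. It was at 4.52, 4.80 and 2.93 on the PH arrays and at 5.25, 4.71 and 4.96 on those labelled PSC, all below every Mock array. On the PC arrays it was at 6.82, 7.02 and 6.25, of which array 2 overlapped the lowest Mock array. The falls were 27.8-fold after PH depletion (log2 -4.80 ± 0.44 SE, limma adjusted p = 1.54e-08), 15.03-fold on those labelled PSC (-3.91 ± 0.44, adjusted p = 6.06e-07) and 4.55-fold after PC depletion (-2.19 ± 0.44, adjusted p = 0.00388). They were called under each of the 27 alternatives tried. The dRING arrays, at 7.90, 7.54 and 6.64, gave -1.53 ± 0.44 with an adjusted p of 0.0608, which became 0.0257 with the replicate block (-1.80), 0.0413 with the poly-A covariate (-1.65) and 0.0127 without Mock array 5 (-1.68), and which also passed with the filter on dim genes. The dKDM2 arrays, at 8.10, 8.46 and 8.49, lay inside the Mock range, with a change of -0.53 ± 0.44 that did not pass. The contrast between the dKDM2 and PH arrays was itself called (4.27 ± 0.57, adjusted p = 4.91e-05).

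Cyp6w1, a gene that has been linked to DDT resistance in flies, rose after PH depletion. It was under 4 on all 14 Mock arrays, with 2.42 as the lowest value, 2.93 as the median and 3.54 as the highest. The PH arrays stood at 6.44, 6.21 and 5.55, and every array of the other depletions was at 3.36 or lower. The PH arrays thus stood clear of all others. The rise was 8.98-fold (log2 3.17 ± 0.18 SE, limma adjusted p = 3.76e-12) and was called under all 27 alternatives, with 3.26 when the poly-A level was a covariate. Cyp6w1 was lower on the dKDM2 arrays than on the PH arrays by a log2 difference of -3.44 ± 0.23 (adjusted p = 2.13e-10). It was called against PH in the other 3 contrasts between depletions too.

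Cyp9c1 rose on the arrays labelled PSC. These were at 10.17, 10.00 and 9.32, while Mock ran from 5.47 through a median of 6.85 to 8.19. The highest array of any other depletion was a dKDM2 array at 8.15, so the 3 arrays lay above all the rest. The rise was 8.79-fold (log2 3.14 ± 0.48 SE, limma adjusted p = 4.01e-05) and was called under all 27 alternatives. Cyp9c1 was also higher on these arrays than on those of each other depletion, by log2 2.14 to 3.37 with adjusted p from 8.05e-04 (PC) to 0.0167 (dKDM2). The contrast with PC was called under all 16 alternatives. The one with dKDM2 was lost without dKDM2 array 3 and without PSC array 1 or 2, and the one with dRING without dRING array 1 and without PSC array 1 or 2, with an adjusted p of at most 0.209 over the alternatives of both. Averaging of like arrays ended both as well. The poly-A covariate ended the contrast with dKDM2 and the one with PH (adjusted p = 0.143 for PH).

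**Figure D4:**
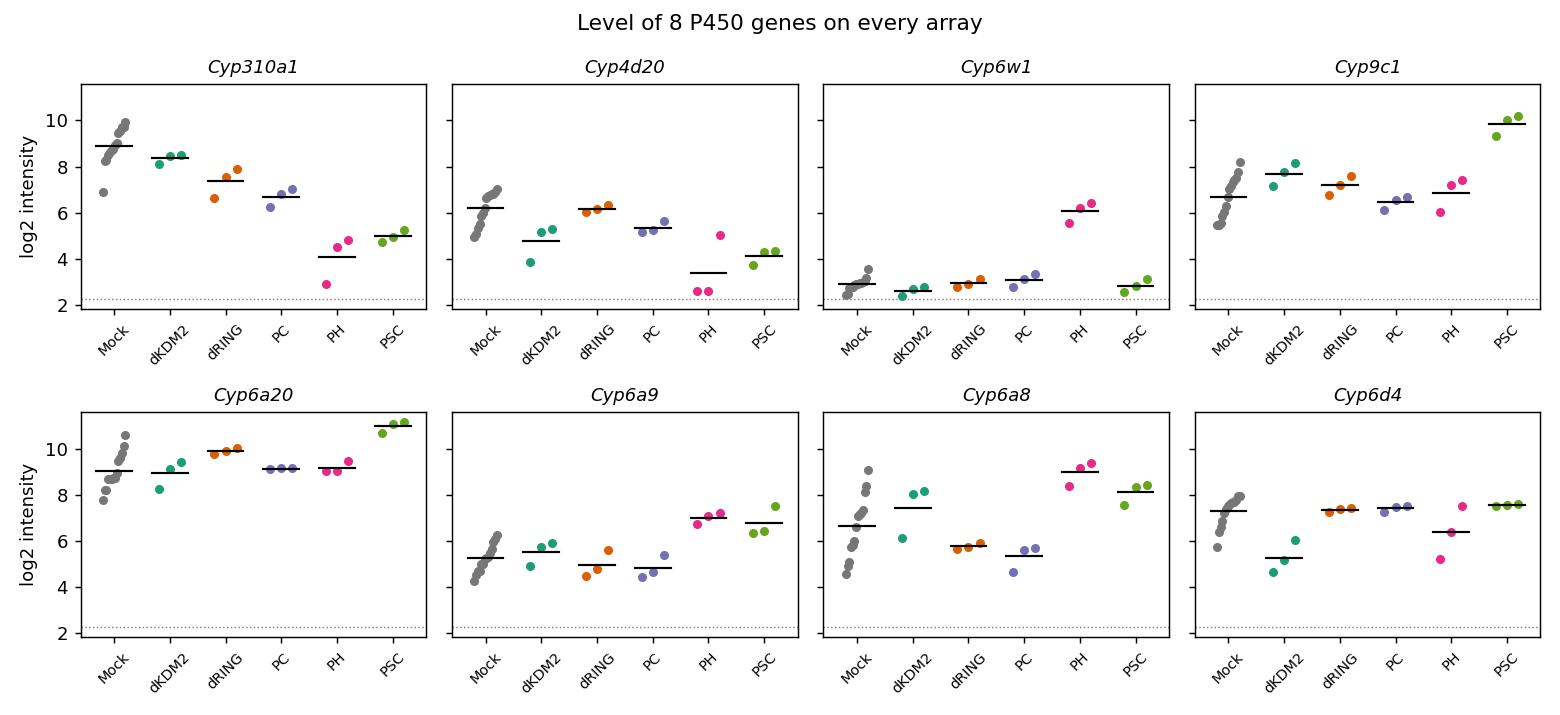
Log2 intensity (vertical axis) of 8 P450 genes on every array of the 6 groups, with a black bar at each group mean and a dotted line at the lowest value. Cyp310a1 is lowest on the PH arrays and on those labelled PSC, Cyp6w1 is high on the 3 PH arrays alone, and Cyp9c1 on the 3 arrays labelled PSC alone.

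Of the neighbouring Cyp6a genes on 2R, Cyp6a20, which is known for an effect on male aggression, rose on the arrays labelled PSC. It was at 11.05, 11.15 and 10.68 there, above all 14 Mock arrays (lowest 7.78, median 8.74, highest 10.60). The rise was 3.84-fold (log2 1.94 ± 0.39 SE, limma adjusted p = 9.59e-04) and was called under all 27 alternatives. On the dRING arrays it was at 9.76, 9.91 and 10.01, inside the Mock range, and its change of 0.87 ± 0.39 did not pass (adjusted p = 0.246). It passed with Mock limited to arrays 1 to 3, without the replicate block (1.17, adjusted p = 0.0272) and with it (0.0325), and with Mock arrays 1 to 7.

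Cyp6a9, the neighbour of Cyp6a20, rose both after PH depletion and on the arrays labelled PSC. Its Mock values ran from 4.25 through 5.24 to 6.27. The PH arrays were at 6.72, 7.21 and 7.08 and those labelled PSC at 6.45, 6.33 and 7.51, all above Mock. The rises were 3.37-fold (log2 1.75 ± 0.36 SE, limma adjusted p = 4.84e-04) and 2.86-fold (1.51 ± 0.36, adjusted p = 0.00442). The second was lost without PSC array 3 (1.14, adjusted p = 0.0720). The first was lost with median centring and became -0.32 with the poly-A covariate (adjusted p = 0.801).

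Cyp6a8, next to last in the run and induced in flies by barbiturates and caffeine, was at 9.38, 9.18 and 8.36 on the PH arrays. Mock ran from 4.57 through 6.86 to 9.08, so that 2 of the 3 PH arrays lay above it. The rise was 4.98-fold (log2 2.32 ± 0.69 SE, limma adjusted p = 0.0108). It was lost without PH array 1 (2.11, adjusted p = 0.0630) or array 2 (2.22, 0.05004), on the deposited values, with median centring and with the poly-A covariate (0.29, 0.949). On the arrays labelled PSC, at 8.34, 8.41 and 7.57, the change of 1.45 ± 0.69 did not pass (adjusted p = 0.177). With Mock limited to arrays 1 to 3 it did, without the replicate block (2.67, 0.00523) and with it (1.14e-04), and likewise with Mock arrays 1 to 7.

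Cyp6a17, linked in flies to temperature preference, stood at 10.66, 10.59 and 9.80 on the arrays labelled PSC, the first 2 above the highest Mock array (8.51 lowest, 9.58 median, 9.96 highest). Its rise was 1.87-fold (log2 0.90 ± 0.25 SE, limma adjusted p = 0.0144). The call was lost without PSC array 1 (0.74, adjusted p = 0.121) or array 2 (0.78, 0.109), with Mock limited to arrays 1 to 3, on the deposited values, with median centring and with like arrays averaged. Cyp6a22 and Cyp6a23 were called in no contrast with Mock. With Mock arrays 1 to 3 Cyp6a22 was higher on the arrays labelled PSC, without the block (1.56, adjusted p = 0.00216) and with it (0.00314), and Cyp6a23 was with the block (1.22, 0.0331). With the poly-A covariate Cyp6a23 was lower after dKDM2 (-2.66, 0.00719) and PH depletion (-3.53, 0.00620), and Cyp6a22 after dKDM2 depletion (-2.10, 0.0321).

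Cyp6a13, which stands on 2R apart from that run, was above 4 on 10 of the 14 Mock arrays, with 3.49 as the lowest value, 5.64 as the median and 7.90 as the highest. The arrays labelled PSC were at 7.76, 7.61 and 8.21, of which array 3 alone exceeded all of Mock. The rise was 5.60-fold (log2 2.49 ± 0.71 SE, limma adjusted p = 0.0171). Leaving out any 1 of the 3 arrays ended the call (2.54, 2.61 and 2.31 without arrays 1, 2 and 3, adjusted p = 0.0571, 0.0534 and 0.0805). Averaging the like arrays 1 and 2 did so too (2.59, adjusted p = 0.0890).

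Cyp6d4 fell after dKDM2 depletion. The arrays were at 6.02, 5.17 and 4.66, and in Mock it ran from 5.73 through 7.54 to 7.96, so that array 1 overlapped the lowest Mock array. The fall was 4.00-fold (log2 -2.00 ± 0.39 SE, limma adjusted p = 2.96e-04) and was called under all 27 alternatives, among them the poly-A covariate (-2.20, adjusted p = 0.0170). On the PH arrays, at 7.50, 6.40 and 5.23, the change was -0.91 ± 0.39 (adjusted p = 0.0792). It was called without PH array 1 (-1.47, 0.0115) and without Mock array 7 (-1.03, 0.0230). Mock limited to arrays 1 to 3 also gave a call, without the block (-1.28, 0.0455) and with it (0.02215). So did the filter on dim genes (0.0475), the deposited values and median centring. The contrasts of dKDM2 with dRING, PC and the arrays labelled PSC were called for this gene (-2.07 to -2.28), and that with PH was not.

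Cyp6u1 and Cyp9f2 changed less. Cyp6u1 was at 9.20, 8.95 and 8.71 on the dKDM2 arrays and at 8.96, 8.85 and 8.42 on the PH arrays, against 7.69, 7.98 and 8.82 (lowest, median, highest) in Mock. Both groups overlapped Mock. It rose 1.81-fold (log2 0.85 ± 0.19 SE, limma adjusted p = 0.00110) and 1.57-fold (0.65 ± 0.19, adjusted p = 0.0106). On the deposited values, with no quantile normalization, the PH change was -0.0635 (adjusted p = 0.892), and it was lost without PH array 1 (0.54, 0.0872) or array 2 (0.59, 0.0585). The poly-A covariate ended both calls, and so did median centring. The dKDM2 call was also lost on the deposited values.

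Cyp9f2 was at 6.40, 7.01 and 5.92 on the PH arrays, inside the Mock range of 5.59 to 8.76 around a median of 7.95. It fell 2.28-fold (log2 -1.19 ± 0.45 SE, limma adjusted p = 0.0401). The call was lost without PH array 1 (-1.17, adjusted p = 0.121) or array 3 (-0.92, 0.214). It was also lost without Mock array 1, 2, 3, 4, 8, 9, 10, 11 or 14, with adjusted p from 0.0504 to 0.0533. The poly-A covariate, Mock arrays 1 to 7 and averaging of like arrays ended the call too. With Mock limited to arrays 1 to 3 Cyp9f2 was lower on the arrays labelled PSC, without the block (-0.97, 0.0397) and with it (0.00636). With the block Cyp9f2 was also lower on the dRING arrays (-0.90, 0.0390). Cyp6a14 and Cyp28d1 were called in no contrast with Mock. With Mock arrays 1 to 3 Cyp28d1 was higher on the arrays labelled PSC (2.28, 0.00712 without the block and 0.00772 with it) and Cyp6a14 after PH depletion (1.96, 0.00975 and 0.0114). Cyp6a14 was lower after dKDM2 depletion with the poly-A covariate (-3.17, 0.0291).

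In the CYP4 clan, Cyp4d20 fell in 3 contrasts. Its Mock values ran from 4.96 through 6.42 to 7.02. The arrays labelled PSC were at 4.33, 4.32 and 3.75, below all of Mock. The PH arrays were at 5.02, 2.59 and 2.61 and the dKDM2 arrays at 3.89, 5.19 and 5.29, and both sets overlapped it. The falls were 6.88-fold after PH depletion (log2 -2.78 ± 0.46 SE, limma adjusted p = 3.96e-05), 4.16-fold on the arrays labelled PSC (-2.06 ± 0.46, adjusted p = 0.00246) and 2.65-fold after dKDM2 depletion (-1.40 ± 0.46, adjusted p = 0.0208). The fall on the arrays labelled PSC was called under all 27 alternatives. The dKDM2 call was lost without dKDM2 array 1 (-0.95, adjusted p = 0.230), and with the poly-A covariate the dKDM2 and PH calls were lost (adjusted p = 0.612 and 0.172).

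Cyp4e2 rose after dKDM2 depletion, where it was at 10.16, 9.82 and 9.17, and after PH depletion, where it was at 9.67, 9.61 and 8.73. Mock ran from 7.61 through 8.38 to 9.51, so that 2 arrays of each set exceeded it. The rises were 2.53-fold (log2 1.34 ± 0.31 SE, limma adjusted p = 0.00163) and 1.94-fold (0.96 ± 0.31, adjusted p = 0.0194). The second was lost without PH array 1 (0.79, adjusted p = 0.132) or array 2 (0.82, 0.115). It was also lost on the deposited values, with median centring and with Mock limited to arrays 1 to 3. With the poly-A covariate the changes were -0.0279 and -0.86, neither of them called. The same covariate gave calls of 1.04 on the dRING arrays (adjusted p = 0.0161) and 1.06 on the PC arrays (0.00769), where the changes without it were 0.85 and 0.91 and did not pass. The PC change also passed without Mock array 11 (1.00, 0.0448).

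Cyp4p3 was silent in Mock, with 2.98 as its highest value. On the PH arrays it was at 2.27, 5.25 and 3.62, so array 1 stayed at the bottom of the scale. Mock lay within 0.1 of the lowest value on 13 of 14 arrays, so the rise of 1.38 ± 0.29 SE on the log2 scale (limma adjusted p = 4.95e-04) gives no exact fold. It rested on 2 arrays, and it was lost with Mock limited to arrays 1 to 3 and with the poly-A covariate, with an adjusted p of at most 0.101. Its neighbours on 2R, Cyp4p1 and Cyp4p2, were called in no contrast with Mock.

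In the mitochondrial clan, Cyp12d1-d, one of a pair of nearly identical genes induced by insecticides, was at 10.60, 11.09 and 10.42 on the dKDM2 arrays and at 10.77, 11.08 and 10.51 on the PH arrays. All 6 lay above the 14 Mock arrays (7.79 lowest, 9.35 median, 10.29 highest). The rises were 2.78-fold (log2 1.47 ± 0.37 SE, limma adjusted p = 0.00329) and 2.95-fold (1.56 ± 0.37, adjusted p = 0.00197). The probe set that names both Cyp12d1-d and Cyp12d1-p moved the other way: its mean was 7.60 ± 0.32 after dKDM2 depletion and 7.50 ± 0.37 after PH depletion (SD, n = 3), against 9.13 ± 0.86 in Mock (n = 14). The direction for this pair of genes is therefore uncertain, and both rises were lost with median centring and with the poly-A covariate, the first also on the deposited values. On the arrays labelled PSC both probe sets were lower than in Mock. The first gave -1.06 ± 0.37 (adjusted p = 0.0546), which was called with Mock limited to arrays 1 to 3 (-1.67, 6.12e-05 without the block and 1.49e-04 with it) and without Mock array 5, 7 or 12 (-1.17, -1.14 and -1.11, adjusted p = 0.0151, 0.0309 and 0.0450), and the second had a mean of 6.49 ± 1.67.

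Cyp12a5 fell after dKDM2 and PH depletion. The arrays were at 6.73, 6.38 and 7.52 and at 5.30, 7.25 and 6.63, against 6.27, 8.54 and 9.61 (lowest, median, highest) in Mock, so both sets overlapped it. The falls were 2.57-fold (log2 -1.36 ± 0.53 SE, limma adjusted p = 0.0489) and 3.59-fold (-1.85 ± 0.53, adjusted p = 0.00794). The dKDM2 call was lost without dKDM2 array 1 (-1.29, adjusted p = 0.161) or array 2 (-1.11, 0.235) and without Mock array 1, 2, 3, 4, 6, 8, 9, 10, 11 or 12 (adjusted p from 0.0547 to 0.0634), and the PH call without PH array 1 (-1.30, 0.122). Both calls were also lost with the poly-A covariate, and the dKDM2 call in a fit with no intensity trend. On the arrays labelled PSC it changed by -1.21 ± 0.53 (adjusted p = 0.130), which passed with Mock limited to arrays 1 to 3 (-2.10, 0.00414 without the block and 0.00409 with it) and without Mock array 14 (-1.36, 0.0493). Cyp12a4, its neighbour, was at 7.92, 8.02 and 8.56 on the PC arrays, all above the highest Mock array at 7.79. Its change of 1.67 ± 0.61 did not pass (adjusted p = 0.122). With Mock limited to arrays 1 to 3 it was lower on the arrays labelled PSC (-1.46, 0.00828 without the block and 0.0126 with it).

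The remaining calls were on genes that were dark in both groups. Of the 36 calls on P450s, 12 had both means at or under 4, and apart from Cyp4p3 these were changes of 0.04 to 0.49 on the log2 scale. Cyp6t1 stood out among them. It was at 2.98, 2.52 and 2.77 on the arrays labelled PSC and within 0.1 of the lowest value on every other array, and its change of 0.49 ± 0.04 SE (limma adjusted p = 7.63e-09) was called under all 26 alternatives. Cyp6g1 was at 3.13 on PH array 3 and at 2.27 on the other 2. Cyp18a1 after PC depletion changed by 0.10, a call that was lost with Mock limited to arrays 1 to 3. That limit added calls on the arrays labelled PSC for Cyp4d2 (0.40, adjusted p = 0.0340 without the block and 0.0154 with it) and Cyp4s3 (0.25, 1.28e-04 and 4.95e-05), both intermediate in Mock. Values this close to the lowest one carry little information on the transcript. How many calls over all genes had both means at or under 4 was not counted.

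Depletions were also compared with each other, in 10 contrasts. In at least 1 of them 22 of the 77 P450s were called, where 30.6% of all genes were. The dKDM2 and PH arrays, which share high poly-A values, differed in 4 P450s (Cyp310a1, Cyp6w1, Cyp4p3 and Cyp313b1) and in 2.46% of all genes. Between dRING and PC limma called no P450, where 0.223% of all genes were called. At an unadjusted p under 0.05 there were 5 P450s, with no count over all genes beside them. Cyp310a1 was higher on the dKDM2 arrays than on those labelled PSC (3.38 ± 0.57 SE, adjusted p = 1.64e-04), on the dRING arrays than on the PH arrays (3.27 ± 0.57, 2.86e-04) and on the PC arrays than on the PH arrays (2.61 ± 0.57, 0.00249). With the poly-A covariate the last 2 calls were lost (1.97, adjusted p = 0.310, and 1.33, 0.540). Cyp6a20 was higher on the arrays labelled PSC than on the dKDM2 arrays by 2.03 ± 0.51 (adjusted p = 0.00624), a call kept under all 16 alternatives.

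The partners of P450 function were read from lists chosen with earlier results of these data known. Results of the alternative fits are given for P450 genes only, so calls on this list and on those that follow stand without that check. This includes the dKDM2 and PH contrasts, in which the poly-A covariate ended several P450 calls. Among the electron donors, 4 genes were measured, while Cpr and dare were not analysed here. Fdx2, a mitochondrial ferredoxin, fell after dKDM2 depletion (log2 -0.95 ± 0.26 SE, limma adjusted p = 0.00555) and on the PSC-labelled arrays (-1.20 ± 0.26, 0.00161). Cyt-b5, which passes electrons to some P450s, fell after PC depletion (-0.71 ± 0.20, 0.0421). Fdx1 and Cyt-b5-r were called in no contrast with Mock.

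All 7 genes measured for haem synthesis were expressed. After dKDM2 depletion 1 rose and 4 fell, after PH depletion 1 rose and 3 fell, on the arrays labelled PSC 1 rose and 2 fell, and after PC depletion 1 rose. Of all expressed genes, 27.6% rose and 28.7% fell after dKDM2 depletion, 27.8% and 28.5% after PH depletion, and 15.2% and 13.9% on the arrays labelled PSC. After PC depletion 6.01% of them rose. The gene that rose was Alas each time, with a mean of 12.04 after dKDM2, 11.91 after PH and 11.06 after PC depletion. Its mean was 11.51 on the arrays labelled PSC, against 10.30 ± 0.39 in Mock (SD, n = 14). Pbgs, which makes porphobilinogen, fell after dKDM2 depletion (log2 -2.95 ± 0.71 SE, limma adjusted p = 0.00206) and on the arrays labelled PSC (-2.98 ± 0.71, 0.00408). Urod, the uroporphyrinogen decarboxylase, fell after dKDM2 (-2.47 ± 0.49, 3.55e-04) and PH depletion (-2.20 ± 0.49, 0.00107).

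Among 8 regulators of the response to foreign compounds, 4 rose and 1 fell after dKDM2 depletion, 3 rose after PH depletion, 3 rose on the arrays labelled PSC and 1 rose after PC depletion. Over all genes tested, the shares that rose were 18.4%, 19.6%, 9.99% and 3.32% in these contrasts, and 14.7% fell after dKDM2 depletion. The transcription factor cnc, the fly counterpart of Nrf2, rose after dKDM2 (log2 1.84 ± 0.32 SE, limma adjusted p = 7.69e-05) and PH depletion (2.02 ± 0.32, 2.39e-05) and on the PSC-labelled arrays (1.69 ± 0.32, 4.88e-04). The nuclear receptor Hr96 rose after dKDM2 (1.17 ± 0.21, 9.97e-05) and PH depletion (1.05 ± 0.21, 3.31e-04). The bHLH-PAS protein tgo rose in all contrasts but that with dRING, by 0.79 to 2.20.

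Conjugating enzymes act on the products of P450s. Of 34 glutathione S-transferases, 20 of which were expressed, 2 rose and 20 fell after dKDM2 depletion, 2 rose and 17 fell after PH depletion, and 3 rose and 7 fell on the arrays labelled PSC. After dRING and after PC depletion 3 fell and none rose. Over all genes tested 14.7% fell after dKDM2, 15.4% after PH, 1.22% after PC and 0.736% after dRING depletion, and for the PSC-labelled arrays the share was 6.51%. On the latter arrays 9.99% rose. Among expressed genes 28.7% fell after dKDM2 and 28.5% after PH depletion. The median change of the 34 was -1.13 after dKDM2 and -0.71 after PH depletion, where the median over all genes tested was -0.0011 and -0.0015. GstD7 fell 12.3-fold after dKDM2 (log2 -3.62 ± 0.82 SE, limma adjusted p = 0.00117) and 14.4-fold after PH depletion (-3.85 ± 0.82, 6.24e-04). It fell 12.55-fold on the arrays labelled PSC (-3.65 ± 0.82, 0.00242). Its means there were 2.85, 2.62 and 2.82, near the lowest value, against 6.47 ± 1.70 in Mock (SD). GstE13 fell 13.0-fold after dKDM2 (-3.70 ± 0.49, 2.45e-06) and 3.12-fold after PH depletion (-1.64 ± 0.49, 0.0116). Of 35 UDP-glycosyltransferases, 26 were silent in Mock, and 3 rose and none fell after dKDM2 and after PH depletion, where 18.4% and 19.6% of all genes rose. The 8 ecdysone synthesis genes outside the Cyp symbols were all silent. Only sad was called among them, after dKDM2 depletion (0.42 ± 0.14, 0.0174). Its mean there was 2.69 ± 0.72 (SD), under the limit of 4 and near the lowest value, 2.27.

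Markers of the tissues that make many P450s were dark in Mock. All 7 fat body markers and all 6 gut and Malpighian tubule markers measured were silent in Mock. The summed level of the fat body list was 15.88 to 16.53 in Mock and 15.89 to 16.72 on the depletion arrays, and that of the gut and tubule list was 13.64 to 14.41 and 13.61 to 15.41. One gut and tubule marker rose after PH depletion and 1 fat body marker rose on the arrays labelled PSC. On the PH arrays byn had a mean of 2.87 ± 1.04 and Jon65Aiii of 2.71 ± 0.64 (SD), against 2.37 ± 0.22 and 2.30 ± 0.05 in Mock. Of 12 blood cell markers 9 were expressed in Mock. Their summed level ran from 75.97 to 98.88 in Mock and from 68.48 to 77.34 on the arrays labelled PSC, which overlapped Mock. Of the 12, 2 rose and 4 fell there, 2 rose and 3 fell after PH depletion, 4 rose after PC depletion and 2 after dKDM2 depletion. Over all genes tested, 9.99% rose and 6.51% fell on the arrays labelled PSC, and 19.6% and 15.4% after PH depletion. After PC depletion 3.32% rose, and after dKDM2 depletion 18.4%. Among expressed genes the shares were 15.2% and 13.9%, 27.8% and 28.5%, 6.01% and 27.6%, in the same order. The part of these marker changes in the P450 results was not tested. The 3 muscle markers were silent. Of 4 neuron markers elav was expressed. The summed level of the 4 was 15.08 to 16.51 on the dKDM2 and PH arrays against 12.28 to 13.92 in Mock. The mean of elav was 8.54 ± 0.26 after dKDM2 and 9.01 ± 0.37 after PH depletion, against 6.17 ± 0.48 in Mock (SD). Those of nSyb, brp and Appl lay between 2.27 and 2.47 in every group. The part of elav in the P450 results was not tested.

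The 2 cyclophilins, Cyp1 and Cyp40, are no P450s. Both are peptidyl-prolyl isomerases, and both were expressed in Mock. Cyp1 fell 3.36-fold after dKDM2 depletion (log2 -1.75 ± 0.34 SE, limma adjusted p = 2.21e-04) and 3.80-fold after PH depletion (-1.93 ± 0.34, 7.24e-05), from 13.85 at the Mock median to 11.92, 11.51 and 12.57 and to 11.97, 11.59 and 11.90. Cyp40 was called in no contrast with Mock. For these 2 genes no results of the alternative fits are given.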

How the data were processed

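Total RNA was measured on 29 arrays. The deposited values are log2 signals per probe set, and the submitters' processing notes name RMA and GCRMA without version, order or role. Scanner values were not used here. Of 18769 gene probe sets, 13647 name 1 gene, and 13544 of those were matched by Entrez number to the Release 6 plus ISO1 MT annotation. Arrays were quantile normalized, and limma 3.58.1 (R 4.3.3) fitted 6 group means with eBayes and an intensity trend, checked on simulated data. Genes at the lowest value on all arrays (305) were left out, and 11678 were tested, with two-sided p adjusted over all of them. The lowest value holds 41.95% of all values, which understates any fall that ends there.

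Named genes were the P450s expressed in Mock or called against Mock, and up to 3 called genes of each companion list. Members and lists were chosen with earlier results of these data known. Over 5490 genes, deviations of same-numbered arrays correlated at 0.62 to 0.84 between Mock and dRING, PC or PSC, so the numbers were taken to pair those groups. Mock with dKDM2 gave -0.11 to 0.06 and Mock with PH 0.05 to 0.15. The number of arrays limits the precision.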

Additional observations from a re-analysis of the deposited data

Results flagged for a closer look

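A probe set that names both shn and Cyp6v1 entered no test. It was higher on all 3 arrays labelled PSC (mean 13.39 ± 0.22, SD) than on any of the 14 Mock arrays (12.10 to 13.15). It was picked by this separation. The highest dRING array (13.22) and the highest PC array (13.16) were above Mock too, and the lowest array labelled PSC was at 13.20. The probe set that names Cyp6v1 alone was within 0.1 of the lowest value on 13 of 14 Mock arrays and on all arrays labelled PSC.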

How the results depend on the processing

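The number of expressed P450s stayed at 18 under each alternative but a limit of 6 on the log2 scale, which left 9. The counts of P450 calls below stand without the share of all genes called in the same fit. On the deposited values 14 were called after dKDM2 and 1 after PC depletion. Median centring gave 32 (3 higher) after dKDM2, 1 after PC and 44 (3 higher) after PH depletion, 7 on the arrays labelled PSC and 59 between any 2 depletions, because it shifts genes at the lowest value. The filter on dim genes gave 2 after dRING and 1 after PC depletion, and Mock arrays 1 to 7 gave 1 after dRING. Mock arrays 1 to 3 gave 1 after dRING, 1 after PC and 16 for PSC, and the replicate block on the same arrays 3, 1 and 17. For dKDM2 and PH, whose numbers do not pair with Mock, the block kept the counts within 1.5 times. The poly-A covariate, chosen after seeing the data, cannot part spike level from dKDM2 or PH depletion. It gave 2 after dRING and 5 after PH depletion. Averaging like arrays, also added later, kept all 6 counts of calls within 1.5 times. With 1 array left out, the count ran from 0 to 1 after dRING and from 1 to 6 after PC depletion, the latter 6 without PC array 1, 5 without array 2 and 1 without array 3. The direction turned for Cyp4e2 after dKDM2 (-0.0279) and PH depletion (-0.86) and for Cyp6a9 after PH depletion (-0.32) with the poly-A covariate, and for Cyp6u1 after PH depletion on the deposited values (-0.0635) and with median centring (-0.21). With 1 array left out, changes near the lowest value ran from -0.0010 to 0.1065 for Cyp12b2, from -0.00 to 0.0618 for Cyp313a3 and from -0.0007 to 0.2144 for Cyp6a2 on the arrays labelled PSC, and from -0.0198 to 0.4584 for Cyp6a19 after PH depletion. The cause was not tested.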
